A study of Mus musculus with 28 samples.

Results

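Kidney endothelial cells of mice with ischemic acute kidney injury were compared after treatment with a mimic of miR-486-5p and after treatment with a scrambled miRNA. The members are 5 of the 28 samples of the series. They were chosen by their titles, as the injured endothelial libraries with mimic (2) and with the scrambled miRNA, abbreviated SCB (3). All came from male FVB mice. In both groups the kidneys had been injured and a synthetic RNA had been given, so the sequence of that RNA is the labelled difference. The library numbers also ran by treatment, with 12, 14 and 16 for SCB and 20 and 21 for mimic. Any effect that goes with these numbers cannot be told apart from treatment. Cells were selected from digested kidneys with microbeads against CD31, an antigen of endothelium that platelets and some leukocytes also carry. The series design gives 2 animals for the mimic group, whereas the extraction notes speak of 3 in every group; each library was taken as 1 animal. Also used were 3 endothelial libraries of injured mice given exosomes, and 8 libraries of proximal tubular cells microdissected from injured kidneys (mimic 2, exosomes 3, SCB 3). The dose, the route and the time of harvest were not given in the sources used here.

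A microRNA guides the Argonaute complex to messenger RNAs that pair with its seed, and the bound transcripts are repressed or degraded. miR-486-5p is abundant in muscle and in red cell precursors, where it has been reported to repress Foxo1 and to act on PI3K and AKT signalling. Endothelial cells of the kidney line the glomerular, peritubular and medullary vessels, and after ischemia they display adhesion molecules that recruit leukocytes. Injured tubule cells meanwhile induce Havcr1 and Lcn2, while NRF2, a transcription factor released from KEAP1 by oxidants, drives glutathione and NADPH genes.

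Depth was 14.2 and 24.1 M reads assigned to genes in the mimic libraries, against 9.26, 8.27 and 11.8 M in the SCB libraries. The 3 exosome-treated endothelial libraries entered the fit for its estimate of spread. Across genes, log2 normalised read counts correlated at r = 0.972 between the mimic libraries and at 0.941 to 0.947 between SCB libraries, and at 0.903 to 0.937 between a mimic and an SCB library. Exosome library 1 stood apart from the other exosome libraries, with 20733 TPM (transcripts scaled to the library's total) summed over proximal tubule markers, against 3451 and 2367. Endothelial markers were present in all 5 libraries of the comparison: Pecam1, which encodes CD31, had 267 and 340 CPM (normalised reads scaled to the library's total) with mimic, against 213, 343 and 248 CPM with SCB. The selection was not pure, since the summed TPM of 11 thick ascending limb markers was above that of 30 endothelial markers in every one of these libraries.

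**Figure D1:**
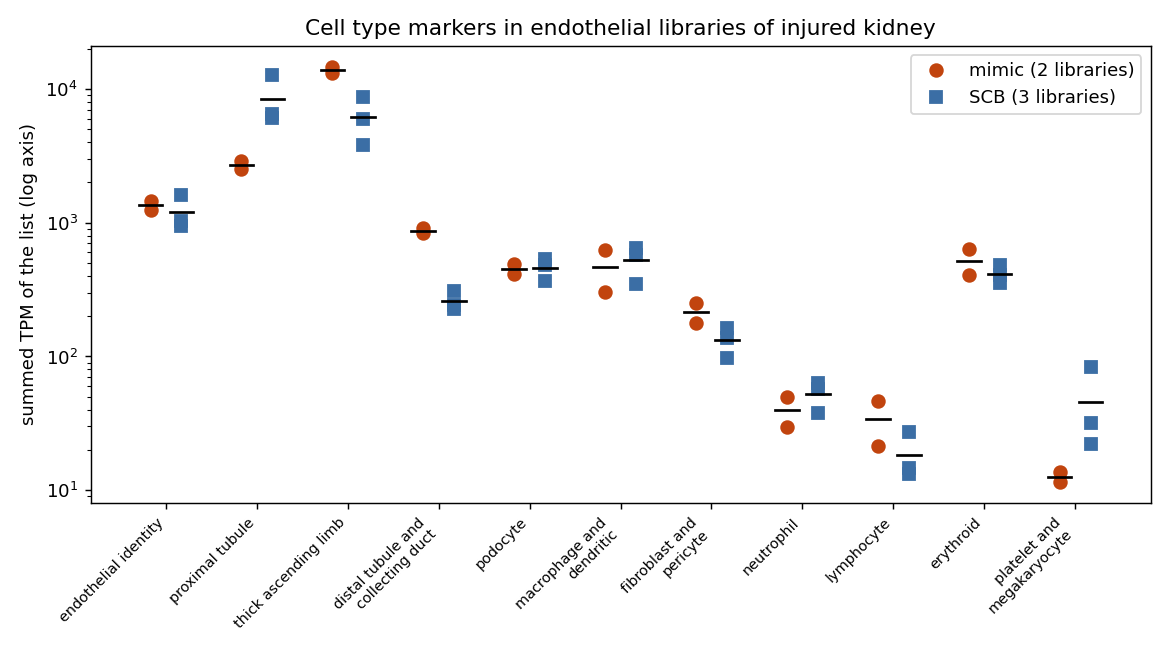
Summed TPM of the marker genes of each cell type (log axis) in each mimic (circles) and SCB (squares) library, with a bar at the group mean. Proximal tubule sums were 2903 and 2537 with mimic and 6024 to 12771 with SCB, distal sums were higher in both mimic libraries than in all SCB libraries, and endothelial sums overlapped.

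The main question of the design is which transcripts differ between the mimic and the scrambled control. Most listed transcripts of distal nephron segments were higher with mimic. Most of those of injured tubule, the NRF2 response, endothelial activation and proximal tubule were lower, while endothelial identity genes had similar levels. None of these differences passed the threshold in the fit of all 8 endothelial libraries. By edgeR's quasi-likelihood test with Benjamini-Hochberg adjustment 0 of 16316 genes (0.0%) were called, and the smallest adjusted p was 0.0545, shared by many genes. At an unadjusted p under 0.05 there were 3176 genes (19.5%), of which 1720 were higher (10.5%) and 1456 lower (8.92%) with mimic. DESeq2 on the same libraries called 1355 genes (8.3%), 712 higher (4.36%) and 643 lower (3.94%). The count of 0 depended on the exosome libraries: in fits added after the data had been seen it was 1321 without exosome library 1, 671 higher (4.15%) and 650 lower (4.02%), 185 without library 2 and 366 without library 3. The 5 libraries alone gave 1494 calls of 15670 genes, 754 higher (4.81%) and 740 lower (4.72%). Every mimic library was above every SCB library for 3822 genes (23.4%) and below every one for 3556 (21.8%). With 2 libraries against 3, an exact permutation test of a single value cannot go below p = 0.1. In what follows a gene or sum is called separate when all mimic values lie on one side of all SCB values, and no single gene is called changed. Counts of list members called by any of these fits are to be read beside the shares of all genes given here. Of the fits without 1 exosome library, list counts are given only for that without library 1, which called the most genes.

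**Figure D2:**
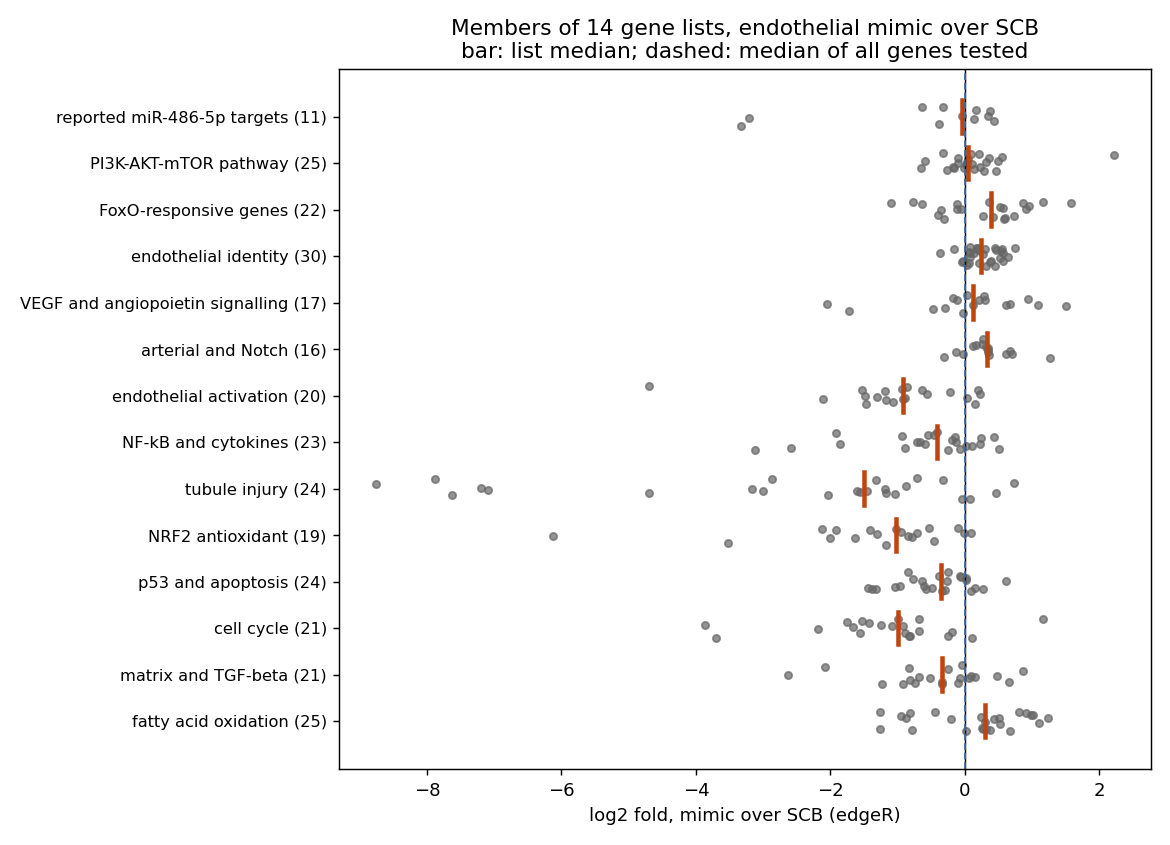
Log2 fold of mimic over SCB (edgeR, horizontal axis) for each tested member of 14 gene lists, with the number tested in brackets, a bar at the list median and a dashed line at the median of all genes tested. Injury, NRF2, activation and cell cycle medians lay between -1.50 and -0.92, whereas target, PI3K and identity medians lay between -0.04 and 0.25.

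The transcripts reported as direct targets of miR-486-5p were examined first, since a guide of this kind acts by lowering its targets. Of 13 such genes 11 had enough reads to be tested (Dock3 and Pax7 had not), and the edgeR fit called 0 of them, as it did of all genes. Foxo1, a transcription factor of quiescence and stress resistance (chromosome 3, 52268336 to 52353221, GRCm38), had 49.6 and 49.4 CPM with mimic, against 52.8, 48.0 and 51.7 CPM with SCB. These groups overlapped in CPM, and the log2 fold was -0.04 (SE 0.19, adjusted p = 0.936). In TPM, which is scaled by transcript length and is not TMM-normalised, Foxo1 had 2.49 and 2.68 with mimic. With SCB it had 3.48, 2.95 and 2.73 TPM, so it was separate and lower on that scale only. Mitochondrially encoded genes took 327023 and 327701 TPM with mimic, against 219929, 269141 and 291295 TPM with SCB. A larger share for them leaves less TPM for all other genes, and its part in the Foxo1 TPM was not tested.

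Pik3r1, the regulatory subunit of PI3K (chromosome 13, 101680563 to 101768217), had 94.0 and 102 CPM in mimic libraries, against 119, 152 and 186 CPM in SCB libraries. The groups were separate, with a log2 fold of -0.63 (SE 0.22, adjusted p = 0.167). Olfm4, a secreted glycoprotein of crypt and injured epithelia (chromosome 14, 79984081 to 80023139), had 5.84 and 14.7 CPM with mimic, against 70.4, 92.6 and 126 CPM with SCB. Its log2 fold was -3.22 (SE 0.62, adjusted p = 0.0545), and it was also separate. Mmp19, a matrix metalloproteinase, stood at 0.211 and 0.28 CPM with mimic, against 3.48, 0.674 and 3.62 CPM with SCB. Its difference of -3.33 (SE 0.88, adjusted p = 0.0972) rests on few reads. Igf1r, the IGF1 receptor, was separate and lower at 137 and 111 CPM with mimic, against 184, 157 and 144 CPM with SCB, but overlapped in TPM.

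In all, 5 of the 11 tested targets were separate and lower with mimic, against 21.8% of all genes, 1 was separate and higher, and 5 overlapped, all in CPM. Summed over the list in TPM, which is not TMM-normalised, the targets reached 62.1 and 77.0 with mimic, against 100, 110 and 110 with SCB. The sum averaged 69.5 TPM with mimic and 106 TPM with SCB. Olfm4 and Pik3r1 made up most of that difference, with means of 2.61 and 11.4 TPM with mimic, against 21.7 and 25.8 TPM with SCB. The gene on the higher side was Arhgap5, a GTPase-activating protein, with 177 and 203 CPM in mimic libraries and 103, 158 and 162 CPM in SCB libraries. The kinase Pim1, the deacetylase Sirt1, the receptor Cd40 and the growth factor Igf1 overlapped, with log2 folds from 0.14 to 0.38; with a length offset Sirt1 was at -0.18 and Igf1 at -0.10. The median over the targets was -0.04, beside 0.01 over all genes tested, and -0.12 without SCB library 2. DESeq2 called 2 targets lower, and the fit without exosome library 1 called 1.

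**Figure D3:**
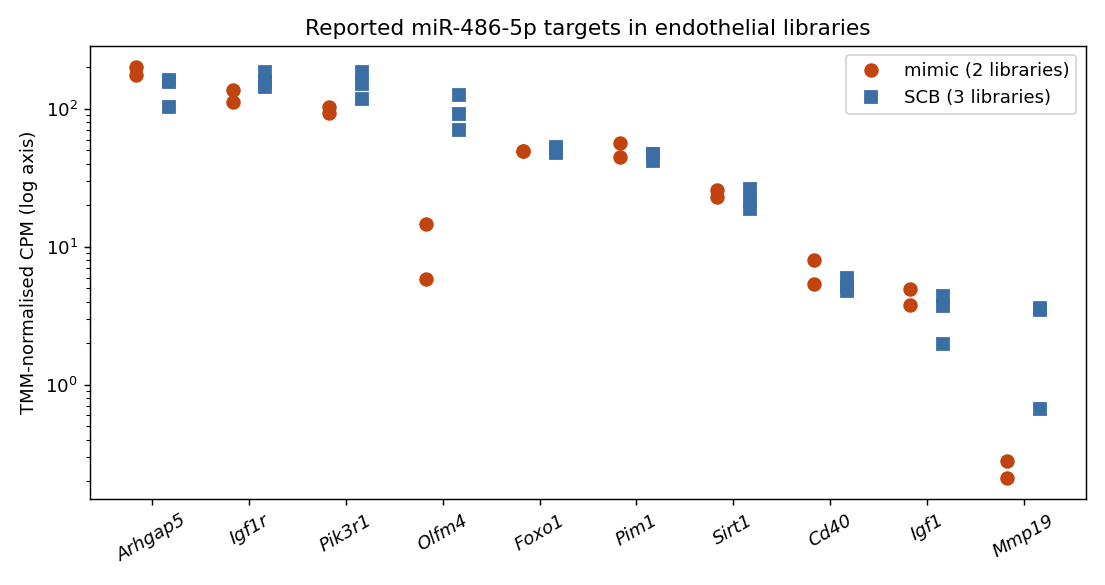
Normalised CPM (log axis) of 10 of the 11 tested reported targets in each mimic (circles) and SCB (squares) library, ordered by mean; levels are to be read within a gene only. Olfm4 had 5.84 and 14.7 CPM with mimic and at least 70.4 CPM with SCB, while Foxo1 values overlapped.

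Beyond the reported targets, 25 genes of the PI3K, AKT and mTOR pathway showed little difference. Their median log2 fold was 0.05; 7 were separate and higher and 4 separate and lower, shares near the 23.4% and 21.8% of all genes, and DESeq2 called none. Akt1, a central kinase of the pathway, had 120 and 123 CPM with mimic, against 117, 109 and 104 CPM with SCB, a log2 fold of 0.14 (SE 0.20, adjusted p = 0.748) that was -0.027 with a length offset. Akt2 differed by -0.15 (SE 0.18), the mTOR activator Rheb by 0.32 (SE 0.16) and the mTOR inhibitor Tsc2 by 0.05 (SE 0.18).

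Genes that respond to FoxO factors leaned higher with mimic. Of 23 listed genes 22 were tested, 11 were separate and higher, against 23.4% of all genes, 1 separate and lower, and the median log2 fold was 0.39. At an unadjusted p under 0.05 by edgeR there were 9 higher and 1 lower, beside 10.5% and 8.92% of all genes. DESeq2 and the fit without exosome library 1 called 4 higher each and none lower, beside 4.36% and 4.15% of all genes called higher. Among the members with the highest TPM, Txnip, an inhibitor of thioredoxin and glucose uptake, overlapped between groups (log2 fold 0.27, SE 0.32). Sod2, the mitochondrial superoxide dismutase, had 260 and 244 CPM with mimic, against 173, 186 and 169 CPM with SCB (0.52, SE 0.21, adjusted p = 0.226). Cat, peroxisomal catalase, lay on the other side at 185 and 181 CPM with mimic, against 378, 240 and 320 CPM with SCB. Gadd45a, a stress-induced gene, overlapped at 93.7 and 80.6 CPM with mimic, against 81.1, 104 and 138 CPM with SCB (log2 fold -0.31, SE 0.38).

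Klf15, a glucocorticoid-responsive transcription factor named here after its values were seen, had 53.8 and 55.4 CPM with mimic, against 18.7, 13.4 and 22.6 CPM with SCB (chromosome 6, 90462576 to 90475238). The log2 fold was 1.58 (SE 0.30, adjusted p = 0.0545). Likewise chosen after the fact, Ccng2, a cyclin of cell cycle exit, differed by 0.87 (SE 0.19), Irs2, an insulin receptor substrate, by 0.92 (SE 0.30), and Esm1, a proteoglycan secreted by endothelial tip cells, by 1.17 (SE 0.26). Each of these 4 genes was separate.

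Genes that mark endothelium itself did not separate the groups. All 30 were tested, 26 with a positive log2 fold (median 0.25), and DESeq2 called none. Of them 6 were separate and higher and 1 separate and lower, against 23.4% and 21.8% of all genes. Cdh5, the cadherin of endothelial junctions, had 206 and 229 CPM with mimic, against 179, 249 and 190 CPM with SCB. Kdr, the main VEGF receptor, had 402 and 420 CPM with mimic, against 279, 512 and 371 CPM with SCB. Both overlapped, with log2 folds of 0.08 (SE 0.21) and 0.09 (SE 0.27), and SCB library 2 held the highest value of each; without SCB library 1 the folds were -0.059 and -0.15. Among the members with the highest TPM, the sialomucin Emcn differed by 0.37 (SE 0.24), the secreted factor Egfl7 by 0.53 (SE 0.33), the adhesion molecule Esam by 0.46 (SE 0.30) and Podxl, which podocytes also express, by 0.21 (SE 0.26).

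Summed over the list, endothelial transcripts reached 1241 and 1462 TPM with mimic, against 951, 1609 and 1035 TPM with SCB. A sum in such bulk libraries does not tell fewer cells of a type from less RNA per cell.

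Genes of vessel growth signals separated about as often as genes in general. Of 17 genes of VEGF and angiopoietin signalling the median log2 fold was 0.12, with 5 separate and higher and 3 separate and lower, near the shares of 23.4% and 21.8% of all genes; DESeq2 called 2 higher and 1 lower. Vegfb, a ligand of VEGFR1 linked to fatty acid uptake (chromosome 19, 6982473 to 6987651), had 83.2 and 63.3 CPM with mimic, against 24.4, 23.7 and 28.9 CPM with SCB. The log2 fold was 1.51 (SE 0.27, adjusted p = 0.0545). Vegfa, the chief ligand of KDR and in kidney made mostly by podocytes and tubule, had 213 and 177 CPM with mimic, against 112, 128 and 141 CPM with SCB (0.62, SE 0.28, adjusted p = 0.261).

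Angptl4, a lipoprotein lipase inhibitor named after its values were seen, went the other way with 19.5 and 17.5 CPM in mimic libraries, against 58.6, 113 and 57.2 CPM in SCB libraries. Its log2 fold was -2.05 (SE 0.47, adjusted p = 0.0761). In the arterial and Notch list of 16 genes, 7 were separate and higher and 1 separate and lower, against 23.4% and 21.8% of all genes. The median was 0.33 and DESeq2 called none. Hes1, a Notch target, differed by 0.62 (SE 0.32), Nr2f2, a determinant of venous identity, by 0.35 (SE 0.17), and the groups of both were separate; Notch4 and Sema3g overlapped.

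Most endothelial activation genes, the adhesion molecules, chemokines and coagulation factors that inflamed vessels display, were lower with mimic. All 20 were tested and 13 were separate and lower, against 21.8% of all genes, with 1 separate and higher and a median log2 fold of -0.92. The groups overlapped for 6 members. Thbd, thrombomodulin, had 21.0 and 26.9 TPM with mimic, against 18.0, 34.6 and 18.8 TPM with SCB. Sele, Selp and Edn1, named after their values were seen, also overlapped in TPM. DESeq2 called 4 lower, the fit without exosome library 1 called 3 and the 5 libraries alone called 9. Cx3cl1, a membrane-bound chemokine (chromosome 8, 94772009 to 94782427), had 59.5 and 69.1 CPM with mimic, against 100, 113 and 145 CPM with SCB. Its log2 fold was -0.89 (SE 0.32, adjusted p = 0.176).

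Icam1, a leukocyte adhesion molecule named after its values were seen, had 40.4 and 42.3 CPM with mimic, against 104, 59.1 and 73.3 CPM with SCB (-0.93, SE 0.32, adjusted p = 0.163). Cxcl10, an interferon-induced chemokine chosen in the same way, had 2.25 and 3.92 CPM with mimic, against 20.4, 12.6 and 7.74 CPM with SCB (-2.11, SE 0.52, adjusted p = 0.0845). Of the 2 members with the highest mean TPM, Lcn2 was separate and lower, as given below with the injury genes, while Plau, the urokinase gene, differed by 0.22 in log2 fold (SE 0.20, adjusted p = 0.586). Lcn2 and Vcam1 are made by injured tubule as well and stand in both lists. The NF-kB and cytokine list had a median of -0.42 over 23 genes. Separate and lower were 12 and separate and higher 1, against 21.8% and 23.4% of all genes. Beside 3.94% of all genes, DESeq2 called 3 of the list lower. Of these Bcl3, an atypical NF-kB inhibitor, had 7.88 and 7.57 CPM in mimic libraries, against 33.9, 20.6 and 32.6 CPM in SCB libraries; it was named after its values were seen.

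Genes of tubule injury were lower with mimic by wide margins. Of 24 listed genes 20 were separate and lower with mimic and 2 were separate and higher, against 21.8% and 23.4% of all genes. The median log2 fold was -1.50. By edgeR 18 had an unadjusted p under 0.05 and DESeq2 called 11, all lower, against 8.92% and 3.94% of all genes. The fit without exosome library 1 called 8 lower and the 5 libraries alone 14. Spp1, osteopontin (chromosome 5, 104435118 to 104441050), had 1851 and 2614 CPM with mimic, against 14119, 20436 and 25269 CPM with SCB. The log2 fold was -3.16 (SE 0.88, adjusted p = 0.11). Clu, the chaperone clusterin, had 362 and 434 CPM with mimic, against 3233, 2578 and 3718 CPM with SCB (-3.00, SE 1.04, adjusted p = 0.17). Lcn2, the iron-binding protein NGAL (chromosome 2, 32384633 to 32388252), had 11.5 and 27.2 CPM with mimic, against 366, 524 and 628 CPM with SCB (-4.70, SE 1.16, adjusted p = 0.0845).

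Every SCB library was several times above every mimic library for these 3 genes. The fit behind the standard errors includes the exosome libraries, where Lcn2 had 29.1, 277 and 22.2 CPM. Havcr1, the KIM-1 receptor of injured proximal tubule, was named after its values were seen and had 0.422 and 3.2 CPM with mimic, against 569, 74.8 and 217 CPM with SCB (-7.20, SE 1.91, adjusted p = 0.098). The fibrinogen chain Fga, made in liver and in injured tubule, had 1.62 and 3.56 CPM with mimic, against 1110, 231 and 241 CPM with SCB (-7.63, SE 1.41, adjusted p = 0.0545). Fgg, which encodes another fibrinogen chain and lies beside it on chromosome 3, had 2.25 and 3.76 CPM with mimic, against 843, 178 and 241 CPM with SCB. Krt7, a keratin of collecting duct, was separate and higher at 345 and 320 CPM with mimic, against 138, 231 and 228 CPM with SCB.

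The summed injury level was 1739 and 2254 TPM with mimic, against 11906, 12764 and 14106 TPM with SCB. Beside it, proximal tubule markers summed to 2903 and 2537 TPM with mimic, against 12771, 6024 and 6511 TPM with SCB, and the part of that RNA in the injury difference was not tested.

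**Figure D4:**
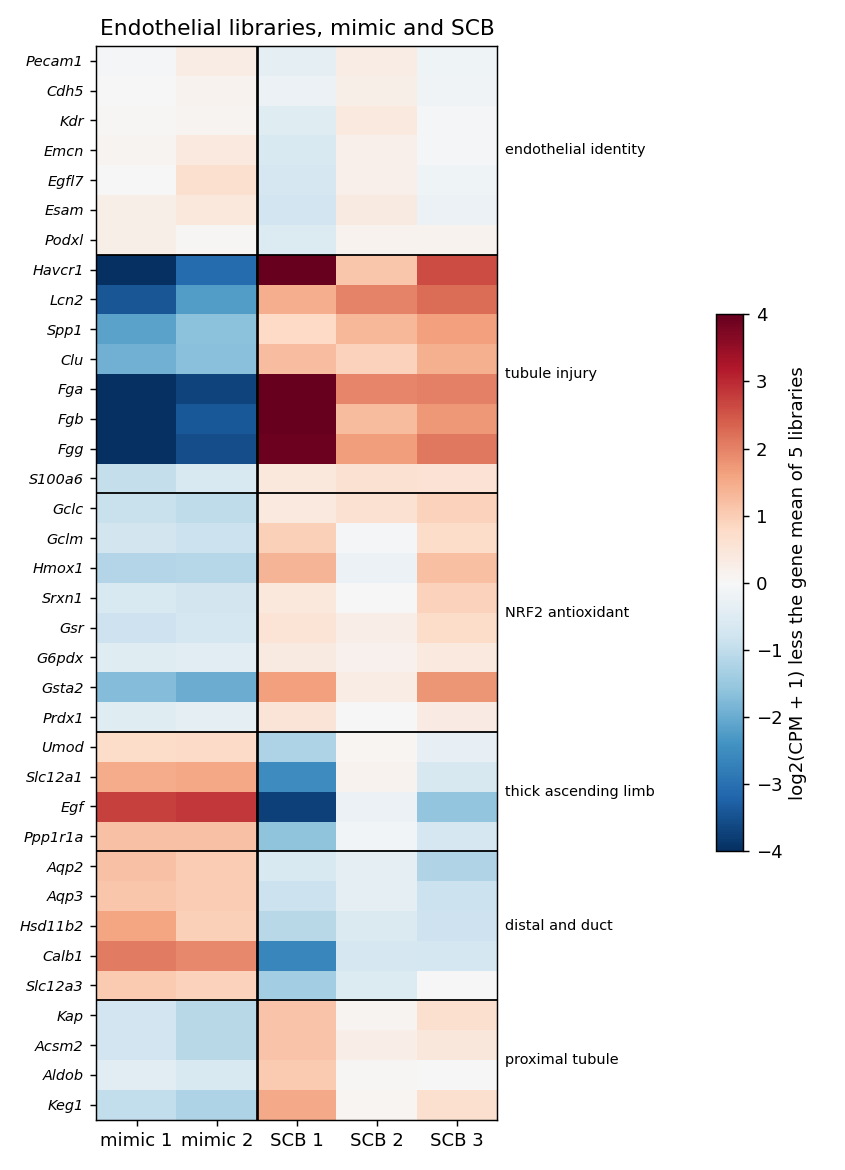
Log2(CPM + 1) of 36 genes picked from 6 lists, each less its mean over the 5 libraries. Mimic libraries are left of the line and SCB libraries right, and colours stop at -4 and 4. Not all list members are shown, and members on the other side, such as Krt7 and Aqp1, are left out. The picked injury and NRF2 genes are blue in both mimic libraries, the picked distal and thick ascending limb genes are red there, and the picked endothelial identity genes are pale throughout.

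Target genes of NRF2, which supply glutathione and NADPH, were lower with mimic. Of 19 tested genes 15 were separate and lower with mimic and none separate and higher, against 21.8% and 23.4% of all genes. The median log2 fold was -1.02. DESeq2 called 11 lower, against 3.94% of all genes. The fits without exosome library 1 and of the 5 libraries alone called 10 lower each, against 4.02% and 4.72%. Gclm, the modifier subunit of the enzyme that starts glutathione synthesis (chromosome 3, 122245557 to 122270732), had 81.2 and 73.3 CPM with mimic, against 260, 127 and 227 CPM with SCB. Its log2 fold was -1.41 (SE 0.44, adjusted p = 0.137). Gsta2, a glutathione transferase, had 4.5 and 3.56 CPM with mimic, against 56.4, 21.3 and 61.2 CPM with SCB (-3.53, SE 0.66, adjusted p = 0.0545); its reads may be shared with the closely related Gsta1. Prdx1, a peroxiredoxin, differed by -0.71 (SE 0.34, adjusted p = 0.291).

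The next 4 members were named after their values were seen. Gclc, the catalytic partner of Gclm, had 128 and 117 CPM with mimic, against 316, 370 and 452 CPM with SCB (-1.63, SE 0.33, adjusted p = 0.0579). Hmox1, which degrades heme, had 21.1 and 21.8 CPM in mimic libraries, against 126, 41.0 and 114 CPM in SCB libraries (-2.13, SE 0.45, adjusted p = 0.0651). The sulfiredoxin Srxn1 differed by -1.17 (SE 0.29) and G6pdx, the first enzyme of the pentose phosphate pathway, by -0.79 (SE 0.19). Nfe2l2 itself, the gene of NRF2, had 142 and 143 CPM with mimic, against 124, 166 and 166 CPM with SCB, and overlapped. Summed NRF2 targets reached 725 and 788 TPM with mimic, against 2116, 1223 and 1751 TPM with SCB. Proximal tubule, whose summed markers moved the same way, also expresses these genes, and its part was not tested.

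NRF2 binds the antioxidant response element, whose core is TGACNNNGC, where N is any base. RefSeq promoter windows (GRCm38.p6, from 250 bases before to 50 after the annotated start) were found for 16 of the NRF2 genes. On either strand 8 of them (50%) held this core, against 14.0% of 27025 genes with a window. The other lists with windows ran from 0.0% (thick ascending limb and neutrophil) to 29.4% (immediate early) and 30.4% (proximal tubule). The genes were listed as NRF2 genes beforehand, so their share says nothing about the mimic. The letters also fit part of the AP-1 motif TGACTCA, so a match does not name a factor. The windows of 4 genes of the list, picked after their values were seen, are printed 5′ to 3′ in the direction of the gene, to show where the core, in capitals, lies; in all 4 it reads on the opposite strand.
Srxn1: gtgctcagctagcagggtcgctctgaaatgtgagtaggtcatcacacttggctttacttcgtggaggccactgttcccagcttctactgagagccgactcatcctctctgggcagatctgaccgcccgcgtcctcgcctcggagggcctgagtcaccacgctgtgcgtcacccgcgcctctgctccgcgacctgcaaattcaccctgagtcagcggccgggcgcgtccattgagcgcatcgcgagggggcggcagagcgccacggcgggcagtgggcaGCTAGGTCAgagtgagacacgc
G6pdx: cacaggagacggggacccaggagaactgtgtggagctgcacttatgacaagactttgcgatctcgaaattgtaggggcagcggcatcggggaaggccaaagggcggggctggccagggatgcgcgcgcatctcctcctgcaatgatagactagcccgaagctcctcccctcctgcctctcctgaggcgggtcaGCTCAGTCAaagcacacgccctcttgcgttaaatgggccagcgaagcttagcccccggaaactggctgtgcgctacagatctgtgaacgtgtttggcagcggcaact
Txnrd1: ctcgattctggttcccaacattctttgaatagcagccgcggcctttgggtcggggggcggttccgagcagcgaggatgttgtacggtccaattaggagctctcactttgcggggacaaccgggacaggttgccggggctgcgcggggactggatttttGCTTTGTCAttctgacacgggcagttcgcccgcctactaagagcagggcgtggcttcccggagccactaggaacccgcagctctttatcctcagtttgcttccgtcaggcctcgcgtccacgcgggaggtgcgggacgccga
Gclm: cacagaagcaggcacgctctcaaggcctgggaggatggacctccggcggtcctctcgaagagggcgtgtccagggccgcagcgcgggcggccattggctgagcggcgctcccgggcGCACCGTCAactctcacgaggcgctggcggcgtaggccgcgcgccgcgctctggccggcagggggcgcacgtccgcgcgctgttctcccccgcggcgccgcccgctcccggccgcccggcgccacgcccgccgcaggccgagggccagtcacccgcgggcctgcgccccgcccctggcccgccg
They are Srxn1 at chr2:152105274-152105573 (plus strand), G6pdx at chrX:74428831-74429130 (minus strand), Txnrd1 at chr10:82858956-82859255 (plus strand) and Gclm at chr3:122245307-122245606 (plus strand). The match began 28 bases after the annotated start in Srxn1, and 57, 92 and 134 bases before it in G6pdx, Txnrd1 and Gclm in that order. Nfe2l2, which overlapped between groups, also held a match. In the matching windows not printed, the core read on the gene's own strand in Pgd, Me1 and Nfe2l2 and on the opposite strand in Prdx1.

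Members of the p53 and matrix lists lay lower more often than higher. In the p53 and apoptosis list of 24 genes 13 were separate and lower and 2 separate and higher, against 21.8% and 23.4% of all genes. The median was -0.36. DESeq2 called 3 lower and the fit without exosome library 1 called 5, against 3.94% and 4.02% of all genes. Trp53 itself, named after its values were seen, had 24.3 and 22.1 CPM with mimic, against 45.1, 39.3 and 51.4 CPM with SCB (-0.96, SE 0.27, adjusted p = 0.113). Bcl2l1 and Mcl1, survival factors of the BCL2 family, were separate and lower by -0.38 (SE 0.18) and -0.26 (SE 0.18).

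Matrix and TGF-beta genes had a median of -0.34 over 21 tested of 23. Separate and lower were 10 and separate and higher 2, against 21.8% and 23.4% of all genes. DESeq2 called 5 lower, against 3.94% of all genes. Col4a1, a chain of basement membrane collagen (chromosome 8, 11198423 to 11312826), had 390 and 362 CPM with mimic, against 708, 660 and 636 CPM with SCB (-0.83, SE 0.23, adjusted p = 0.106). Its head-to-head partner Col4a2, chosen after the fact, differed by -0.91 (SE 0.22). Fn1, fibronectin, also chosen after the fact, had 11.9 and 17.4 CPM with mimic, against 152, 51.5 and 69.8 CPM with SCB (-2.63, SE 0.54, adjusted p = 0.0612).

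Cell cycle genes were few in reads, and 21 of 22 were tested. Of these 6 were separate and lower and 1 separate and higher, against 21.8% and 23.4% of all genes. The median of -0.99 became -1.68 without mimic library 2 and -0.46 without SCB library 1. Ccnd1, cyclin D1, was the member on the higher side with 642 and 568 CPM in mimic libraries, against 288, 237 and 282 CPM in SCB libraries (1.17, SE 0.30, adjusted p = 0.0928). DESeq2 called only this member.

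Fatty acid oxidation, the main fuel pathway of tubule epithelium and also active in endothelium, had members on both sides. Of 25 genes 15 were separate and higher and 6 separate and lower, against 23.4% and 21.8% of all genes. The median was 0.31. DESeq2 called 6 higher and 1 lower, against 4.36% and 3.94% of all genes. The fit without exosome library 1 called 5 and 4, against 4.15% and 4.02%. Hadhb, a subunit of the mitochondrial trifunctional protein (chromosome 5, 30155248 to 30184593), had 461 and 466 CPM with mimic, against 194, 268 and 242 CPM with SCB (0.98, SE 0.22, adjusted p = 0.0742). Its partner Hadha differed by 0.68 (SE 0.20), Acadm, a medium-chain dehydrogenase, by 0.44 (SE 0.29) and the electron carrier Etfb by 0.50 (SE 0.19), and all 4 were separate and higher. Ehhadh, a peroxisomal enzyme named after its values were seen, had 86.0 and 77.7 CPM with mimic, against 177, 198 and 211 CPM with SCB, a log2 fold of -1.25 (SE 0.51).

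Markers of other nephron segments separated the groups in opposite directions. All 16 markers of distal tubule and collecting duct were tested, and all 16 were separate and higher with mimic, against 23.4% of all genes; the median was 1.65, DESeq2 called 15 and so did the fit without exosome library 1. Aqp2, the vasopressin-regulated water channel (chromosome 15, 99579055 to 99584547), had 629 and 565 CPM with mimic, against 182, 215 and 122 CPM with SCB (1.79, SE 0.42, adjusted p = 0.0801). Hsd11b2, which shields the mineralocorticoid receptor from cortisol and corticosterone, had 405 and 265 CPM with mimic, against 62.0, 91.7 and 75.9 CPM with SCB (2.13, SE 0.41, adjusted p = 0.0545). Slc12a3, the thiazide-sensitive cotransporter, differed by 1.53 (SE 0.44) and the anion exchanger Slc4a1, shared with red cells, by 2.95 (SE 0.65).

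In the thick ascending limb list 10 of 11 markers were separate and higher, against 23.4% of all genes, and the median was 1.51. DESeq2 called 9 higher and the fit without exosome library 1 called 6, against 4.36% and 4.15% of all genes. Umod, uromodulin (chromosome 7, 119462711 to 119479282), had 27976 and 28845 CPM with mimic, against 7145, 17730 and 13544 CPM with SCB (1.15, SE 0.41, adjusted p = 0.175). Egf, which this segment and the distal convoluted tubule secrete, had 8664 and 9122 CPM with mimic, against 95.7, 1094 and 432 CPM with SCB (4.04, SE 0.87, adjusted p = 0.0651). The mimic libraries lay close together for both genes, whereas the SCB libraries spread widely, with library 1 lowest. Slc12a1, the furosemide-sensitive cotransporter, differed by 2.17 (SE 0.62). As sums, this list reached 13253 and 14683 TPM with mimic, against 3826, 8712 and 5957 TPM with SCB, and the distal list 908 and 841 TPM, against 225, 309 and 242 TPM.

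Proximal tubule markers lay on the other side. Of 30 genes 22 were separate and lower and 1 separate and higher (Aqp1, which vessels also express), against 21.8% and 23.4% of all genes. The median was -1.61. DESeq2 called 4 lower and the fit without exosome library 1 called 17, against 3.94% and 4.02% of all genes. That library held 20733 TPM of these markers, against 3451 and 2367 TPM in the other exosome libraries, and its part in the count of 17 was not tested. The 5 libraries alone called 15 lower, against 4.72% of all genes. Kap, an androgen-regulated kidney protein, had 1184 and 915 CPM with mimic, against 4407, 2144 and 3100 CPM with SCB (-1.62, SE 0.81, adjusted p = 0.308). Pck1, the gluconeogenic enzyme (chromosome 2, 173153048 to 173159273), had 137 and 109 CPM with mimic, against 746, 643 and 947 CPM with SCB (-2.66, SE 0.49, adjusted p = 0.0545).

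Podocyte markers did not separate in any of 10 genes, and their sums of 488 and 413 TPM with mimic overlapped 370, 482 and 535 TPM with SCB. Macrophage and dendritic sums also overlapped, at 304 and 629 TPM with mimic and 576, 652 and 346 TPM with SCB. Of 13 tested fibroblast and pericyte genes 5 were separate and higher and 3 separate and lower, against 23.4% and 21.8% of all genes. Their median was 0.06. Among the higher ones, Acta2, the actin of contractile cells, had 44.8 and 39.2 CPM with mimic, against 19.9, 19.6 and 21.4 CPM with SCB (1.05, SE 0.19, adjusted p = 0.0545). Of 5 tested platelet genes 1 was separate and higher (Gp1bb) and 1 separate and lower, near the 23.4% and 21.8% of all genes. The one on the lower side, the chemokine Pf4, had 2.74 and 4.25 CPM with mimic, against 18.9, 9.44 and 8.5 CPM with SCB (-1.80, SE 0.45, adjusted p = 0.0863). These other cells' parts in the list differences above were not tested.

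Mitochondrially encoded transcripts, an often used sign of cell stress or tissue type, took 15.8 and 14.6% of reads with mimic, against 9.08, 12.6 and 14.3% with SCB. All 13 had positive log2 folds (median 0.37), and none was called by DESeq2.

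To place the difference by cell of origin without using the contrast itself, genes were sorted by their level in the exosome-treated libraries of both cell types. Of all genes tested, 12.7% were at least 2-fold higher in tubular than in endothelial libraries (mean TPM + 0.1). The share was 5.87% among the 1720 genes higher with mimic at an unadjusted p under 0.05 and 32.2% among the 1456 lower ones. Genes at least 2-fold higher in endothelial libraries made up 44.9% of the higher genes and 16.5% of the lower ones, beside 25.9% of all; the endothelial libraries of this sorting also held thick ascending limb and distal RNA, and exosome library 1 among them held 20733 TPM of proximal tubule markers, so an endothelial level is not an endothelial origin.

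The 10 genes per direction with the smallest p and at least 100 reads on average all had an adjusted p of 0.0545 and were all separate. On the higher side, Adssl1, an adenylosuccinate synthase of muscle type, had 61.6 and 58.7 CPM with mimic, against 4.17, 6.74 and 6.56 CPM with SCB (3.37, SE 0.43). Lrrc66, a leucine-rich repeat protein, had 62.4 and 60.9 CPM with mimic, against 7.74, 14.9 and 9.51 CPM with SCB (2.53, SE 0.32). Bdh1, a mitochondrial enzyme of ketone body use, had 146 and 141 CPM with mimic, against 37.5, 50.7 and 57.5 CPM with SCB (1.56, SE 0.23). The other higher genes were the vitamin E binding protein Afm, the lysosomal protease Ctsf, the mitochondrial genes Sfxn4 and Mcee, Tlcd1, the epoxygenase Cyp2j6 and the lincRNA Gm47708, with log2 folds from 1.21 to 3.91.

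On the lower side, F13a1, the coagulation factor XIII subunit of macrophages and platelets, had 1.06 and 1.24 CPM with mimic, against 27.7, 17.4 and 11.9 CPM with SCB (-4.03, SE 0.44). Psat1, an enzyme of serine synthesis (chromosome 19, 15904678 to 15947337), had 10.3 and 11 CPM with mimic, against 89.8, 53.5 and 75.1 CPM with SCB (-2.77, SE 0.31). Plin2, the coat protein of lipid droplets (chromosome 4, 86648386 to 86670060), had 34.2 and 34.7 CPM with mimic, against 200, 137 and 184 CPM with SCB (-2.33, SE 0.28). Chil3, a chitinase-like protein of activated macrophages, had 1.20 and 0.961 CPM in mimic libraries, against 14.9, 28.8 and 23.4 CPM in SCB libraries (-4.38, SE 0.58).

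Cyp2a5, a drug-metabolising cytochrome, had 4.64 and 2.80 CPM with mimic, against 248, 91.8 and 330 CPM with SCB (-5.92, SE 0.96); its reads may be shared with the near-identical Cyp2a4. The copper protein Cp, the kinase Mapk4, the adaptor Sh3bp2, the antisense transcript Gm20400 and the lincRNA Gm12840 completed the lower 10, with folds from -3.29 to -1.02. Reads of Gm20400 cannot be told from those of its sense partner unless the counting used strand, which was not given in the sources used here. All 20 genes passed under DESeq2, in the 5 libraries alone and without any 1 exosome library, and none passed when a mimic or SCB library was left out.

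The mimic was also set directly against exosome treatment. By edgeR 0 of 16316 genes (0.0%) were called between mimic and exosome libraries, 661 had an unadjusted p under 0.05 (4.05%), 151 of them higher (0.925%) and 510 lower (3.13%) with mimic, and DESeq2 called 5 (0.0306%), 1 higher (0.00613%) and 4 lower (0.0245%). The smallest p on the higher side belonged to Gm48493, a processed pseudogene with 2.96 and 6.89 CPM with mimic and 0 in all 3 exosome libraries. Next came Atp10a (0.94, SE 0.23), Acta2 (0.71, SE 0.19), S100a8 (1.60, SE 0.43) and Tagln (0.83, SE 0.23), each with an adjusted p of 0.988. Pck1 had 137 and 109 CPM with mimic, against 816, 294 and 291 CPM with exosomes (-1.92, SE 0.47, adjusted p = 0.988). The epithelial membrane protein Steap1 (-3.47, SE 0.85), Sh3bp2 (-1.50, SE 0.37), the pseudogene Gm12013 (-1.31, SE 0.33) and Ugt1a8 (-3.74, SE 0.98) were also lower. The reads of both pseudogenes and of Ugt1a8, which shares exons with other Ugt1a genes, are uncertain.

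By list, injury genes had a median of -0.54 against exosomes with 5 of 24 lower at an unadjusted p under 0.05 by edgeR. NRF2 genes had -0.30 with 3 of 19, and the share of all genes was 3.13%. Exosome libraries 1, 2 and 3 held 1749, 7006 and 1510 TPM of injury genes, so the mimic values of 1739 and 2254 TPM lay within their range. Proximal tubule genes had a median of -1.91 with 17 of 30 lower, against 3.13% of all genes and beside the high sum of exosome library 1.

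Whether the endothelial difference was another than the tubular one was tested with an interaction term over 16 libraries. No gene of 17143 passed by edgeR (0.0%), 2650 had an unadjusted p under 0.05 (15.5%), 1470 positive (8.57%) and 1180 negative (6.88%), and DESeq2 called 609 (3.55%), 322 positive (1.88%) and 287 negative (1.67%). The edgeR count became 33 without tubular SCB library 1 and 105 without tubular mimic library 1. The labels do not say whether libraries of the 2 cell types came from the same mice, and the fit took them as independent.

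The gene with the smallest interaction p was Ren1, renin of juxtaglomerular cells, with log2 folds of mimic over SCB of 0.72 in endothelial and -3.21 in tubular libraries (interaction 3.93, SE 0.61, adjusted p = 0.0674). Calb1, the calcium buffer of distal convoluted tubule, differed by 3.12 in endothelial and -2.27 in tubular libraries (interaction 5.39, SE 0.92). Gnb5, Scg5 and Cyp2j6 had interactions of 2.23, 3.21 and 2.10 (SE 0.35, 0.51 and 0.35). On the negative side Olfm4 differed by -3.21 in endothelial and 0.45 in tubular libraries (interaction -3.66, SE 0.66, adjusted p = 0.0674). Crispld2, Lrp12, Prr5 and Galns followed, with interactions from -2.71 to -1.70.

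In the same joint fit, injury genes had median log2 folds of -1.50 in endothelial and -4.08 in tubular libraries, and endothelial activation genes of -0.92 and -1.91. NRF2 genes had -1.02 in endothelial and -0.42 in tubular libraries. Markers of proximal tubule were at -1.61 in endothelial and 0.73 in tubular libraries. Of their 30 interactions 16 were negative at an unadjusted p under 0.05 by edgeR, against 6.88% of all genes. Distal markers were at 1.64 in endothelial and -0.88 in tubular libraries, with 7 of 16 interactions positive at that threshold, against 8.57% of all genes.

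**Figure D5:**
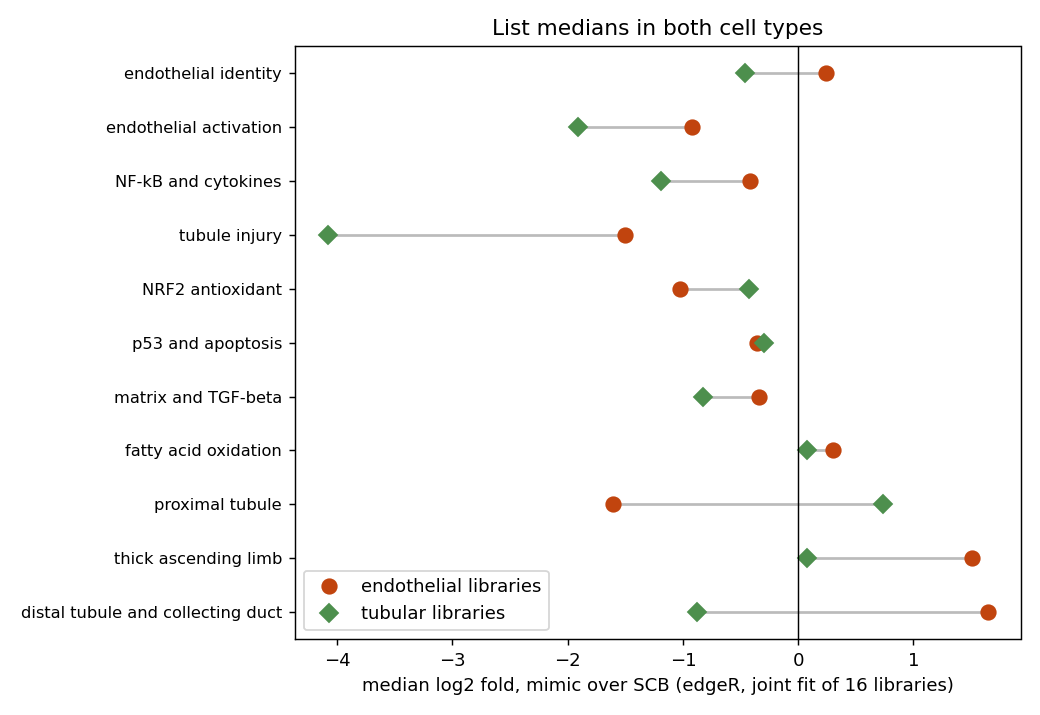
Median log2 fold of mimic over SCB (horizontal axis, joint edgeR fit of 16 libraries) for 11 lists in endothelial (circles) and tubular (diamonds) libraries. Injury medians were negative in both cell types, whereas proximal and distal tubule medians had opposite signs.

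The authors' deposited tables compare each treatment with untreated injury, and untreated injury and mimic with sham. In the authors' deposited table of untreated injury over mimic, 1282 of 25412 genes were higher in untreated injury and 750 lower. The authors' deposited table of untreated injury over SCB had 70 and 84 of 25412. The threshold was an adjusted p under 0.05. These tables share the untreated libraries and carry DESeq2's column names and folds that appear shrunken, so they are given side by side only. For injury genes the authors' deposited tables had 11 of 24 members higher in untreated injury than with mimic and 0 higher than with SCB. For NRF2 genes the authors' deposited tables had 11 of 19 and 0, for proximal tubule 25 of 30 and 1, and for the thick ascending limb 8 of 11 lower in untreated injury than with mimic and 0 lower than with SCB.

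Lcn2 had a log2 fold of 4.51 for untreated injury over mimic (SE 0.87) and 0.01 over SCB (SE 0.21) in the authors' deposited tables. Pck1 had 4.45 (SE 0.50) and 1.68 (SE 0.47) there, so in the authors' deposited tables it passed for both treatments. F13a1 had 0.96 over mimic (SE 0.62, adjusted p = 0.0849) and -1.68 over SCB (SE 0.52, adjusted p = 0.0138) in the authors' deposited tables. Foxo1 had 0.29 over mimic (SE 0.30, adjusted p = 0.499) and 0.11 over SCB (SE 0.20, adjusted p = 0.732) in the authors' deposited tables. With mimic over sham, the authors' deposited table had 28 of 30 proximal tubule markers lower and 13 of 19 macrophage markers higher. Of all 25412 genes in the authors' deposited table, 742 were higher and 1439 lower with mimic than in sham.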

How the data were processed

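Messenger RNA was measured by sequencing of poly(A) libraries, per the labels. The authors made estimated counts and TPM per transcript with Salmon 0.13.1 on GRCm38, per the submitters' processing notes, and deposited them unnormalised. The authors also deposited comparison tables of log2 folds and p-values, whose headers name columns as DESeq2 does. Transcripts were summed to 53392 genes, 52175 of which matched GENCODE M21 for positions, and sums were rounded. The fit took all 8 endothelial libraries (mimic 2, SCB 3, exosomes 3) with edgeR 4.0.16 in R 4.3.3: TMM, filterByExpr (minimum count 10, total 15), quasi-likelihood tests and Benjamini-Hochberg adjustment at 0.05 over 16316 genes; DESeq2 1.42.0 was an alternative. CPM are TMM-normalised. Depth (8.27 to 24.1 M) limits precision, and p-values cover the spread between libraries only. Scripts were tested on simulated data.

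The members and gene lists were chosen with earlier results of these data known. Named genes were those called (none), else the 10 per direction with the smallest p and at least 100 reads, the 4 members of each list with the highest TPM, all reported targets, and the 5 per direction with the smallest p in the other 2 comparisons; others are marked as chosen after their values were seen. Some list members are given only in counts, and a few are not reported here by name. Replicate numbers are not said to mark a shared mouse, so they were not taken to pair libraries. Same-numbered endothelial libraries had deviation correlations from -0.0114 to 0.241. Differently numbered libraries were not set beside them, so these values cannot decide on pairing. Alternatives were another scaling, filter, length offset, thinning, block, sample set and each library left out.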

Additional observations from a re-analysis of the deposited data

How the results depend on the processing

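The count of 0 genes called between mimic and SCB libraries became 1355 with DESeq2, 2038 with no filter on low counts, 1494 in the 5 libraries alone and 661 with the replicate number as a block; it was 0 with RLE size factors, a length offset or thinning to the shallowest library (3165, 2739 and 3008 genes at an unadjusted p under 0.05). Over all libraries left out in turn it ran from 0 to 1321, and was above 0 only without an exosome library. Between mimic and exosomes the 0 calls became 5 with DESeq2 and 661 with no filter, and 0 in all other fits, the replicate block included. The interaction count of 0 became 609 with DESeq2, 1716 with no filter and 184 with only the groups compared, was 0 with the library number as a replicate block, and ran from 0 to 105 without each library. Whether the replicate numbers of endothelial libraries mark pairs could not be decided, so the block results describe only the fit. The causes of these differences between fits were not tested.

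List medians were followed with RLE size factors, DESeq2, the 5 libraries alone and each library left out. They kept their sign there, except heat shock, the unfolded protein response, podocyte, macrophage and lymphocyte lists. The length offset, thinning, no-filter and block fits were not applied to the list medians, so medians near 0 were not checked there. Without each library in turn they ran from -0.12 to -0.027 for targets, -1.09 to -0.70 for activation, -0.48 to -0.26 for NF-kB, -0.45 to -0.31 for p53, -1.68 to -0.46 for cell cycle, 0.051 to 0.30 for hypoxia, -0.41 to -0.27 for matrix, -0.082 to -0.026 for junctions, -0.50 to 0.29 for macrophage, -0.027 to 1.11 for lymphocyte, 0.0096 to 0.22 for fibroblast and -1.26 to -0.27 for platelet genes. Of the named genes, folds near 0 changed sign with the length offset for Sirt1 (-0.18), Igf1 (-0.10) and Akt1 (-0.027). Without each library in turn the folds ran from -0.0076 to 0.23 for Sirt1, -0.083 to 0.11 for Tsc2, -0.0046 to 0.57 for Txnip, -0.0096 to 0.35 for Pecam1, -0.059 to 0.19 for Cdh5, -0.15 to 0.29 for Kdr, -0.026 to 0.32 for Podxl and -0.00011 to 0.31 for Pim1. Among all alternatives for named genes, 1685 kept direction and call, 478 passed where the reported fit did not, and these 12 changed sign. Depth limits genes of few reads, such as Mmp19 and the cell cycle list.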

Other observations

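Hypoxia and glycolysis genes had a median log2 fold of 0.27 over 23 genes, and 0.05 without SCB library 1. Separate and higher were 10 and separate and lower 4, against 23.4% and 21.8% of all genes. Lymphocyte markers summed to 21.6 and 46.4 TPM with mimic, against 27.0, 13.3 and 14.8 TPM with SCB; their median of 0.83 over 16 genes was -0.03 without mimic library 2. Erythroid transcripts summed to 404 and 637 TPM with mimic, against 355, 481 and 409 TPM with SCB. Of 8 tested neutrophil genes 7 had a negative log2 fold (median -0.94), while Ltf had 11.6 and 18.0 TPM with mimic, against 0.11, 0.21 and 0.37 TPM with SCB. Immediate early genes had 4 of 22 separate in each direction, against 23.4% higher and 21.8% lower of all genes, and a median of 0.24. Of 24 interferon response genes 6 were separate and lower, near the 21.8% of all genes, and 1 separate and higher, against 23.4%. Their median was -0.15. Heat shock genes had a median of 0.09 over 10, the unfolded protein response -0.004 over 19 and junction genes -0.06 over 12.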
